A study of Homo sapiens with 10 samples.

Results

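Glycolysis was followed here through 10 genes, 8 genes for its enzymes and 2 for glucose transporters. They were chosen by name (PKM, HK1, HK2, SLC2A1, SLC2A3, LDHA, ENO1, PGK1, ALDOA and GAPDH), and all 10 were among the 59204 human genes listed in the count tables. Earlier results of these data were known when they were chosen. Glucose enters the cell through transporters of the SLC2A family, and a hexokinase traps it by adding a phosphate. Aldolase splits the sugar, and GAPDH, phosphoglycerate kinase, enolase and pyruvate kinase turn the pieces into pyruvate with a gain of ATP. Lactate dehydrogenase then makes lactate and gives back the NAD+ that GAPDH needs, a route that leukemia cells use heavily even when oxygen is present.

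The cells were K562, a line from a human chronic myeloid leukemia that carries the BCR-ABL1 fusion and has erythroid features. Cells of 5 groups were treated for 2 hours, and 100 µM 4-thiouridine, a uridine analogue that enters new RNA, was present in the final 1 hour. The groups were DMSO, the solvent control; Actinomycin D at 1 µg/mL, which binds DNA and stops elongation; AZ-5576 at 1 µM, an inhibitor of CDK9, the kinase that releases paused RNA polymerase II; JQ1 at 1 µM, which displaces BET bromodomain proteins from chromatin; and A-485 at 1 µM, an inhibitor of the acetyltransferases CBP and p300. Each group held 2 libraries, and the labels do not say whether these came from separate cultures, so p-values measure only the spread between these libraries. The fit pools that spread over genes, so the p-value of a gene does not rest on its own libraries alone. The label is read as T-to-C conversions after iodoacetamide treatment (SLAM-seq). Labelled counts are therefore RNA made in the final hour, and total counts are the whole mRNA pool. The libraries read from the poly(A) end of mRNA, so a transcript gives about the same number of reads whatever its length, and levels were not divided by length.

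Depth ran from 14916671 to 17918971 human counts per library, of which 1410 to 448401 were labelled, beside 1817677 to 2212752 counts of Drosophila RNA. Levels are given as spike-in-scaled counts, the counts per 1000000 Drosophila counts of the same library. Since that RNA was added after purification, a level is per amount of RNA and tells neither the number of cells nor the RNA per cell. The 10 markers listed for K562, among them HBG1, GATA1 and TFRC, had 288 to 33364 total counts in every library. Of 15 markers of other cell types 2 (MS4A1 and KRT5) had no count in any library, and 4 had at least 10 in every library, among them EPCAM (929 to 1116), CD3D (412 to 656) and COL1A1 (35 to 59). Their part in the results was not tested. The JQ1 libraries differed most from each other. The squared difference between replicates, over what sampling noise gives, averaged 12.5 per gene for JQ1 and 4.13 to 6.29 in the other groups.

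The hexokinase promoters are shown because HK1 and HK2 catalyse the same step and stood far apart with A-485 (-1.76 and 0.10 on the log2 scale in labelled RNA), a pair chosen after its values were seen. RefSeq (GRCh38.p14) gave windows for 9 of the 10 members, all but SLC2A3, and 19 windows in all because several genes have more than 1 start. Each sequence is the 250 bases before a RefSeq start, on the gene's own strand, at a start whose window holds no annotated exon, with capitals marking the matches on either strand. The letters searched were the E-box bound by MYC and its relatives, CACGTG. They were also the cores of the element bound by hypoxia-inducible factor, of which the first, ACGTG, lies within the E-box, while the other is GCGTG. The last were the GC box, GGGCGG, and the TATA box, TATAAA. HK2, at the second of its 2 starts, is at chr2:74834920-74835169 (+), and HK1, at the fifth of its 7 starts, at chr10:69317931-69318180 (+). Both windows lie inside the annotated spans of their genes, which begin at 74833981 for HK2 and at 69269984 for HK1.
HK2: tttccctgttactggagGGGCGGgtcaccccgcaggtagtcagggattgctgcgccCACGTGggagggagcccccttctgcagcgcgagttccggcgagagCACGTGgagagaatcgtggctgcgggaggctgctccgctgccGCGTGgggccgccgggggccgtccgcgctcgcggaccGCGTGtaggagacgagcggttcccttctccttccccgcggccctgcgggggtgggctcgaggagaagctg
HK1: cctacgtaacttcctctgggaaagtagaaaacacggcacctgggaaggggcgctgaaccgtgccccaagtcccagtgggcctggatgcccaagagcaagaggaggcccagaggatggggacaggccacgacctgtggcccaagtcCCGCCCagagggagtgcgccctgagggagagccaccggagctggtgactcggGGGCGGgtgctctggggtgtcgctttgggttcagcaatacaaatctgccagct
The HK2 window held 2 E-boxes, 2 further GCGTG matches and 1 GC box. The window of the other HK2 start held no E-box, 2 ACGTG matches, 1 GCGTG match and 4 GC boxes. The HK1 window held 2 GC boxes and no E-box, and none of the 7 HK1 windows held an E-box. HK1 starts 3, 4 and 7 also had no annotated exon in their windows. These windows held none of the letters searched, so the HK1 window printed was picked among several and does not stand for all HK1 starts. Of 35116 RefSeq windows of the same length 6.34% held the E-box, 18.5% the first and 32.2% the second core of the hypoxia element, 42.6% the GC box and 10.7% the TATA box. LDHA also held 2 E-boxes at its first start, and GAPDH and ALDOA 1 each, the latter at its second start. ENO1, PGK1, PKM and SLC2A1 held no E-box, and SLC2A1 was the 1 member with a TATA box. A match is a string of letters and not a site shown to be bound, and counts at the 3′ end do not tell which start was used.

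In DMSO the transporters and HK2 had the lowest pools and the largest labelled shares among the members. In total RNA of the DMSO libraries GAPDH stood highest at 21643 ± 1603 spike-in-scaled counts (SD, n = 2), followed by PKM at 17415 ± 1217, ENO1 at 14396 ± 535, LDHA at 11398 ± 958 and ALDOA at 6771 ± 97.1. HK1 stood at 3987 ± 368, PGK1 at 1751 ± 230, SLC2A1 at 679 ± 88.7, SLC2A3 at 638 ± 59.7 and HK2 at 241 ± 2.19. Neighbours in this order did not overlap between libraries except SLC2A1 and SLC2A3. The labelled share, labelled counts as a percent of total counts, was 9.47% and 8.16% for HK2 in replicates 1 and 2, 7.70% and 8.30% for SLC2A1, and 7.70% and 6.55% for SLC2A3. It was between 0.674% ± 0.0617 (GAPDH) and 2.03% ± 0.142 (PGK1) for the other members. The median share was 3.71% over the 10409 genes whose total counts in DMSO averaged 50 or more. HK2 lay at the 80.2th percentile of these genes and GAPDH at the 7.92th. Shares of different genes also depend on how many T a read covers, whose part was not tested.

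Actinomycin D and AZ-5576 left little new RNA of any member. With Actinomycin D 8 members had 0 labelled counts in both libraries, and ENO1 and PKM had a single count in replicate 1. With a limit of 3 counts over the group, LDHA was at least 275-fold lower than DMSO, GAPDH at least 203-fold, ALDOA at least 130-fold, HK1 at least 100.4-fold, SLC2A1 at least 76.0-fold, SLC2A3 at least 63.2-fold, PGK1 at least 49.7-fold and HK2 at least 29.7-fold lower. PKM was 1043-fold lower, with an exact 95% counting interval of 187 to 41232. All 10 members fell (edgeR), where 99.2% of genes tested in labelled RNA were called lower, so the count says nothing particular of glycolysis. Intervals and limits cover counting error only.

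AZ-5576 left traces. ALDOA had 11 and 19 labelled counts against 196 and 149 in DMSO, 8.22% ± 2.45 of the DMSO level per spike-in, and fell by 3.58 on the log2 scale (SE 0.33, adjusted p = 5.8e-27). LDHA (11 and 21 counts against 355 and 375) fell by 4.57 (SE 0.28), PKM (10 and 14 against 419 and 505) fell by 5.32 (SE 0.29) and GAPDH (4 and 7 against 279 and 261) fell by 5.65 (SE 0.35). The rest had 5 or fewer counts per library, except 6 for ENO1 in replicate 1. HK2 had none and was at least 27.6-fold lower. All 10 members fell, against 94.7% of all genes, and their median was -5.49 against -5.94 over all genes. On the TMM scale, which shifted the median gene up by 3.25, SLC2A3 (-1.36) and ALDOA (-0.08) were no longer called.

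**Figure D1:**
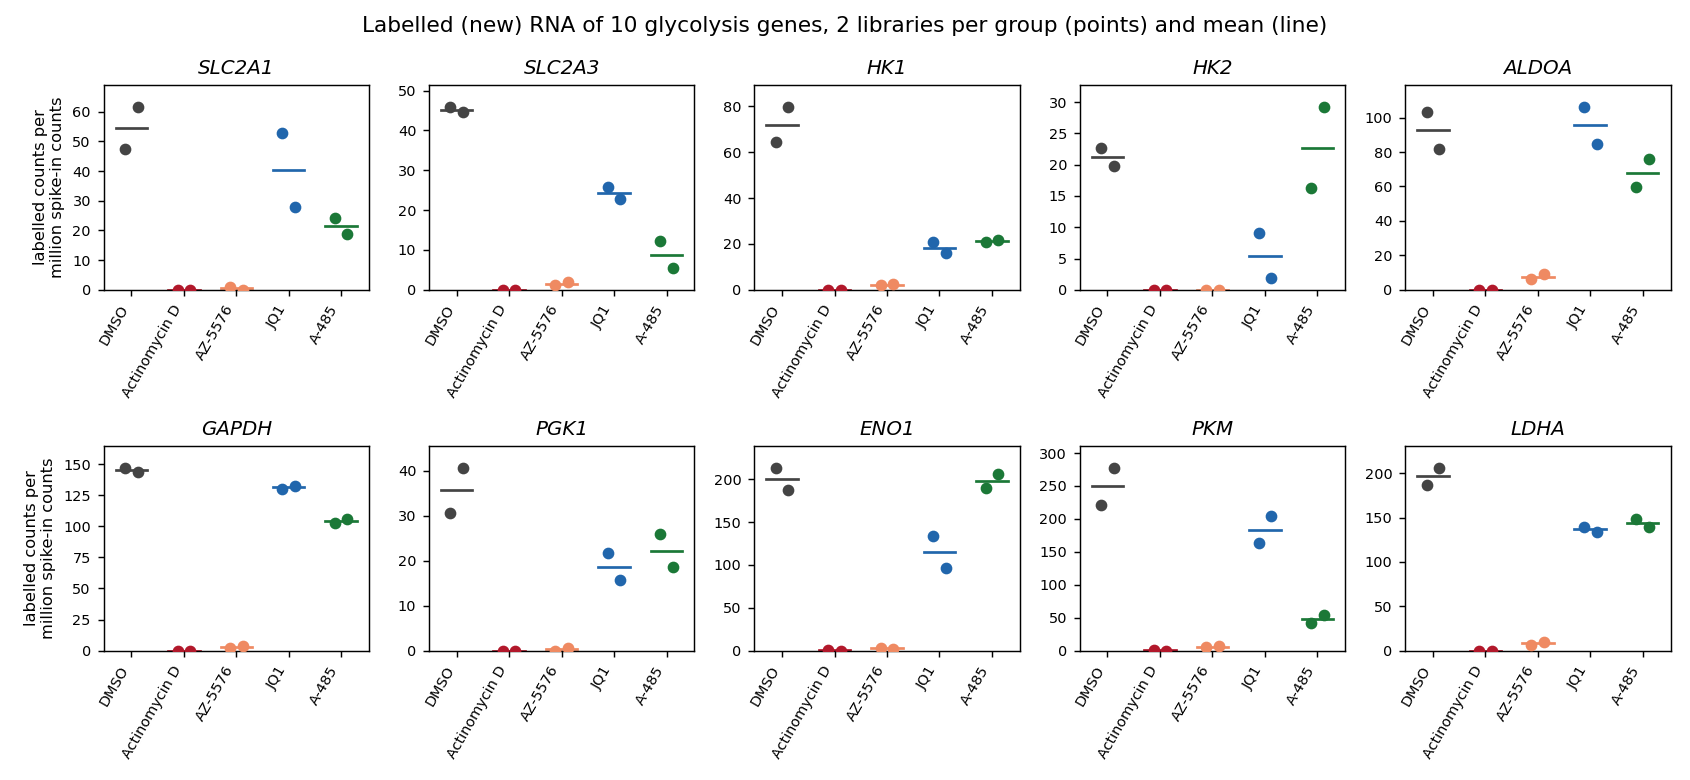
Spike-in-scaled labelled counts (vertical axis, from 0, its own range per gene) for each of the 10 members in the 5 groups; points are libraries and lines are means of 2. With A-485, PKM stands at 19.5% of its DMSO mean and ENO1 at 98.5%, and with Actinomycin D all members are at or near 0.

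JQ1 and A-485 each lowered 4 of the 10 members in labelled RNA, and HK1 was in both counts. The DMSO libraries are shared by both comparisons, so the drugs were also compared with each other directly. Of all genes 28.6% were called lower for JQ1 and 4.86% for A-485. The medians over the members were -0.66 for JQ1 and -0.58 for A-485, against -0.85 and -0.09 over all genes. The members were chosen with earlier results of these data known, so these counts and medians do not test them against all genes. None of the 10 rose with either drug (edgeR, 0 at an unadjusted p under 0.05, 0 with DESeq2), where 1.26% of all genes rose for JQ1 and 0.163% for A-485. TMM scaling takes most genes as unchanged. It moved genes up by a median of 0.83 for JQ1 and 0.12 for A-485, and with JQ1 it gave 1 lower member (HK1) and 2 higher ones (ALDOA and GAPDH). Directions for JQ1 below hold on the spike-in scale, and PKM, SLC2A1, LDHA, ENO1 and GAPDH had the other sign on the TMM scale.

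Among the transporters, A-485 took away most new RNA of SLC2A3. SLC2A3 encodes GLUT3, a transporter of high affinity for glucose (chromosome 12, 7919230 to 7936275, minus strand). It had 87 and 81 labelled counts in DMSO, 57 and 48 after JQ1, and 24 and 11 after A-485. Both A-485 libraries lay below both JQ1 libraries, which lay below both DMSO libraries. With A-485 it fell by 2.34 (SE 0.43, n = 2, adjusted p = 4.8e-06), to 19.6% ± 10.4 of DMSO. With JQ1 it stood at -0.90 (SE 0.38, adjusted p = 0.0588) and did not pass. A-485 against JQ1 differed by -1.45 (SE 0.44, adjusted p = 0.00755), a call lost without A-485 replicate 2 (adjusted p = 0.222). Its close relative SLC2A14 had at most 2 total counts in any library.

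SLC2A1 encodes GLUT1, the basal transporter of most cells and of red cells (chromosome 1, 42925375 to 42959176, minus strand). It had 90 and 112 labelled counts in DMSO, 117 and 59 after JQ1, and 48 and 37 after A-485. The JQ1 libraries stood 1 near DMSO and 1 near A-485. With A-485 it fell by 1.34 (SE 0.34, adjusted p = 0.00329), to 39.4% ± 7.41 of DMSO. This call was lost without A-485 replicate 2 (-1.16, adjusted p = 0.185) or DMSO replicate 2 (-1.14, adjusted p = 0.288). With JQ1 it stood at -0.43 (SE 0.32, adjusted p = 0.306). The direct difference was -0.91 (SE 0.35, adjusted p = 0.0340) and was lost when JQ1 replicate 1, A-485 replicate 1 or A-485 replicate 2 was left out (adjusted p = 0.574, 0.0758 and 0.272).

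HK1 fell with both JQ1 and A-485, and HK2 with JQ1. HK1, the widely expressed form that sits on mitochondria and is also the main hexokinase of red cells (chromosome 10, 69269984 to 69401884, plus strand), had 122 and 145 labelled counts in DMSO, 46 and 34 after JQ1, and 41 and 43 after A-485. All 4 of these drug libraries lay far below DMSO and close together. HK1 fell by 1.96 with JQ1 (SE 0.34, adjusted p = 6.1e-07) and fell by 1.76 with A-485 (SE 0.34, adjusted p = 2.0e-05). The difference between the drugs was 0.20, with a 95% interval of -0.53 to 0.93. Of all genes tested 13.8% had a lower value than HK1 with JQ1.

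HK2, an inducible form that also binds mitochondria and is raised in many tumors (chromosome 2, 74833981 to 74893359, plus strand), had 43 and 36 labelled counts in DMSO, 20 and 4 after JQ1, and 32 and 58 after A-485. Both JQ1 libraries lay below all DMSO and A-485 libraries, while the A-485 libraries spanned DMSO. HK2 fell by 1.93 with JQ1 (SE 0.53, adjusted p = 0.00230), a call lost without JQ1 replicate 2 (-1.23, adjusted p = 0.131), and it stood at -3.45 without JQ1 replicate 1. With A-485 it stood at 0.10 (SE 0.46, 95% interval -0.81 to 1.01). A-485 was above JQ1 by 2.03 (SE 0.53, adjusted p = 0.00127), a value that stood at 3.54 without JQ1 replicate 1 and lost its call without JQ1 replicate 2 (adjusted p = 0.106) or A-485 replicate 2 (adjusted p = 0.116). On the TMM scale HK2 was called neither for JQ1 nor between the drugs (adjusted p = 0.183 and 0.0791). A long noncoding RNA on the opposite strand, AC019069.1, overlaps HK2 with a mean of 243 total and 12.5 labelled counts in DMSO. It does not cover the annotated 3′ end of HK2, the end from which the libraries read. Whether counting used the strand is not given in the sources used here.

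In the middle of the pathway 1 of 8 comparisons with DMSO passed, that of ENO1 with JQ1. The shares of all genes called lower were 28.6% with JQ1 and 4.86% with A-485, so the count says nothing particular of these genes. ALDOA, the main aldolase outside liver (chromosome 16, 30064164 to 30070457, plus strand), had 196 and 149 labelled counts in DMSO, 235 and 179 after JQ1, and 118 and 151 after A-485. The JQ1 libraries spanned the DMSO level, at 103% ± 16.4 of it. ALDOA stood at 0.04 with JQ1 (SE 0.24, adjusted p = 0.908) and at -0.45 with A-485 (SE 0.25, adjusted p = 0.452). Without JQ1 replicate 1 or DMSO replicate 2 the JQ1 value had the other sign.

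GAPDH, which makes NADH and is often used as a reference gene (chromosome 12, 6533927 to 6538374, plus strand), had 279 and 261 labelled counts in DMSO, 288 and 280 after JQ1, and 202 and 210 after A-485. Per spike-in this was 90.3% ± 1.15 of DMSO with JQ1 and 71.6% ± 1.60 with A-485, and the groups did not overlap. Neither passed the test, at -0.15 (SE 0.21, adjusted p = 0.620) and -0.48 (SE 0.22, adjusted p = 0.270). The 64 GAPDH pseudogenes listed held together 0.736 to 1.49% of GAPDH's total counts.

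PGK1, the first enzyme of the pathway to make ATP (chromosome X, 77910739 to 78129296, plus strand), had 58 and 74 labelled counts in DMSO, 48 and 33 after JQ1, and 51 and 37 after A-485. Per spike-in every drug library was below both DMSO libraries, but neither comparison passed (-0.93, adjusted p = 0.0623, and -0.68, adjusted p = 0.506).

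ENO1, enolase (chromosome 1, 8861000 to 8879250, minus strand), had 405 and 341 labelled counts in DMSO, 296 and 203 after JQ1, and 373 and 409 after A-485. The A-485 libraries overlapped DMSO and the JQ1 libraries lay below both. ENO1 fell by 0.80 with JQ1 on the spike-in scale (SE 0.20, adjusted p = 0.000790) and stood at 0.03 on the TMM scale. The call was lost without DMSO replicate 1 (adjusted p = 0.0545) or JQ1 replicate 2 (adjusted p = 0.0744). With A-485 it stood at -0.02 (95% interval -0.41 to 0.37). The drugs differed by 0.78 (SE 0.20, adjusted p = 0.00121), lost on the TMM scale (0.08) and without JQ1 replicate 2 (adjusted p = 0.0917).

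At the end of the pathway PKM gave the contrast between the drugs with the smallest p among the members. PKM encodes the pyruvate kinases of most tissues, PKM1 and PKM2 (chromosome 15, 72199029 to 72231822, minus strand), which the counts per gene do not separate. It had 419 and 505 labelled counts in DMSO, 360 and 431 after JQ1, and 84 and 108 after A-485. Both A-485 libraries lay below the DMSO and JQ1 libraries by more than the spread within these groups. They stood at 19.5% ± 3.34 of DMSO, and the JQ1 libraries at 73.5% ± 11.7. PKM fell by 2.36 with A-485 (SE 0.22, adjusted p = 7.7e-24) and stood at -0.44 with JQ1 (SE 0.20, adjusted p = 0.0725). A-485 against JQ1 differed by -1.92 (SE 0.22, adjusted p = 2.0e-15). Both A-485 calls held without any single library, with values of -2.55 to -2.19 and -2.10 to -1.74.

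LDHA, the lactate dehydrogenase subunit that favours lactate (chromosome 11, 18394388 to 18408425, plus strand), had 355 and 375 labelled counts in DMSO, 309 and 283 after JQ1, and 292 and 276 after A-485. The drug libraries overlapped each other and lay below DMSO. LDHA fell by 0.52 with JQ1 on the spike-in scale (SE 0.20, adjusted p = 0.0359), was 0.31 higher without a call on the TMM scale, and lost the call without any 1 of the DMSO or JQ1 libraries (adjusted p = 0.0930 to 0.258). With A-485 it stood at -0.45 (SE 0.20, adjusted p = 0.258). The drugs differed by 0.07, with a 95% interval of -0.33 to 0.47.

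**Figure D2:**
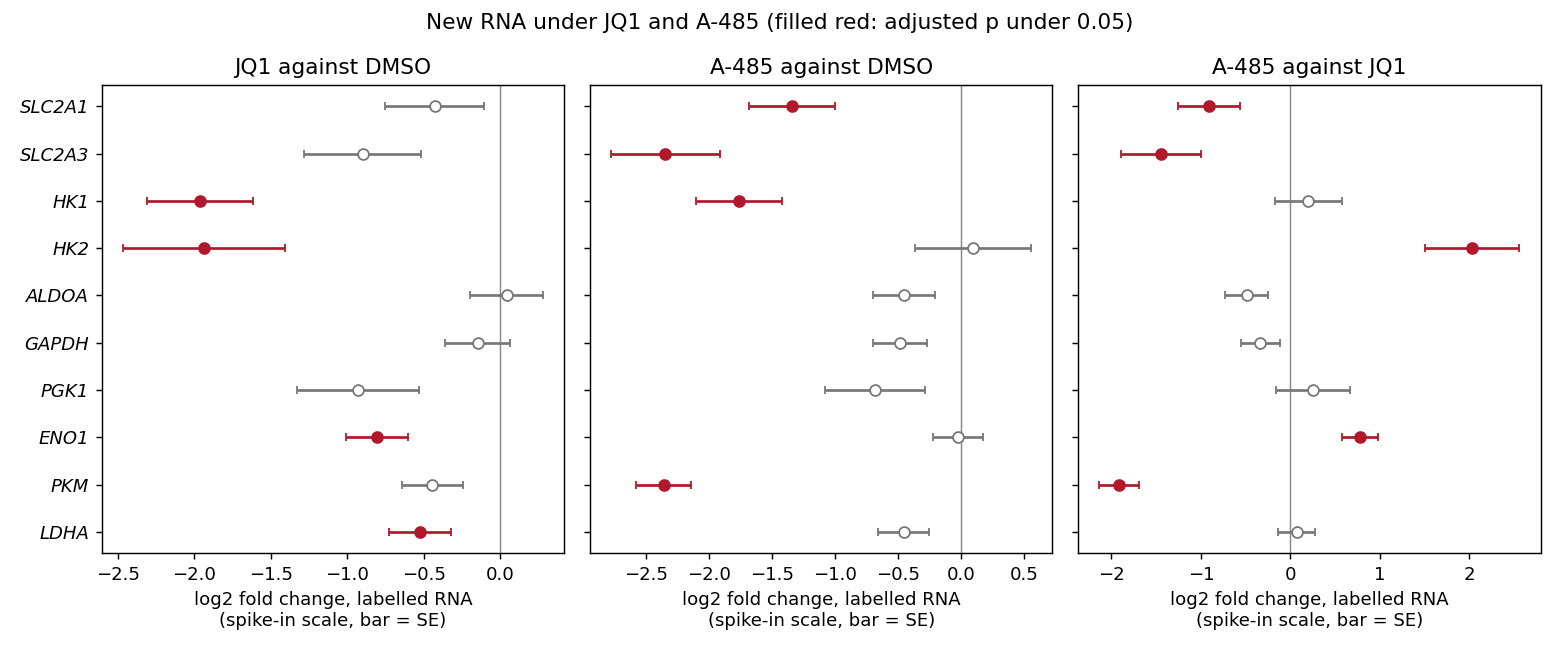
Log2 fold change of labelled RNA on the spike-in scale (horizontal axis, bars are SE) for the 10 members in 3 comparisons; filled red points have an adjusted p under 0.05. PKM, SLC2A3 and SLC2A1 were lower with A-485 than with JQ1 and HK2 and ENO1 higher. Of these calls between the drugs, that of PKM alone held whichever single library was left out. On the TMM scale HK2 and ENO1 were not called, and HK1, LDHA and PGK1 had the other sign in the comparison between the drugs.

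In the direct comparison A-485 gave 3 members lower than JQ1 (PKM, SLC2A3, SLC2A1) and 2 higher (HK2, ENO1). Among these calls that of PKM alone held whichever single library was left out. Of all genes 3.14% were lower and 24.8% higher, with a median of 0.72, and the members' median was -0.13. On the TMM scale 6 members were lower and none higher.

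The pools of these mRNAs changed little within 2 hours, with SLC2A3 under A-485 as the clear exception. SLC2A3 had 1130 and 1237 total counts in DMSO, 660 and 716 with A-485, 1124 and 1135 with JQ1, 1054 and 1367 with Actinomycin D, and 874 and 1121 with AZ-5576. Both A-485 libraries were far below all 8 others. Per spike-in the pool was at 54.5% ± 2.86 of DMSO with A-485, 81.9% ± 3.24 with JQ1, 90.2% ± 11.6 with Actinomycin D and 80.1% ± 7.33 with AZ-5576. It fell by 0.88 with A-485 (SE 0.12, n = 2, adjusted p = 6.1e-06), and by 0.78 to 0.97 when single libraries were left out. It was the only member of 10 called in that comparison, where 1.2% of all genes were lower and 0.0343% higher. Actinomycin D left no labelled SLC2A3 count, yet the pool stood at -0.15 there (SE 0.12, adjusted p = 0.416). The pools with A-485 and with Actinomycin D were then compared directly, a test added after these values were seen. SLC2A3 was lower with A-485, at -0.73 (SE 0.12, adjusted p = 2.4e-05), again the only member called, where 0.652% of all genes were lower and 16.1% higher. On the TMM scale 7 members were lower in that comparison.

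SLC2A1 was the member whose pool fell with Actinomycin D. Its total counts were 1169 and 1349 in DMSO, 1062 and 1051 after Actinomycin D, 980 and 1117 after AZ-5576, 1289 and 1343 after JQ1, and 1185 and 1023 after A-485. Per spike-in both Actinomycin D libraries lay below DMSO, at 74.3% ± 4.64 of it. It fell by 0.43 (SE 0.12, adjusted p = 0.00768) in a comparison where 19.7% of genes were lower. The call was lost on the TMM scale (-0.17), without Actinomycin D replicate 2 (adjusted p = 0.0942) and without DMSO replicate 2 (adjusted p = 0.208). It stood at -0.33 with AZ-5576 (adjusted p = 0.0527), at -0.28 with A-485 (adjusted p = 0.473) and at -0.16 with JQ1 (adjusted p = 0.422).

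HK2, the third member with a high labelled share, had 454 and 441 total counts in DMSO, 558 and 561 with A-485, 488 and 442 with JQ1, 434 and 487 with Actinomycin D, and 386 and 436 with AZ-5576. Per spike-in the A-485 libraries were the highest, at 117% ± 0.150 of DMSO, but did not pass (0.23, adjusted p = 0.821). PKM, whose new RNA fell most clearly with A-485, had a pool of 95.8% ± 5.33 of DMSO (-0.06, SE 0.11, 95% interval -0.27 to 0.15), and HK1 one of 94.7% ± 1.23.

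**Figure D3:**
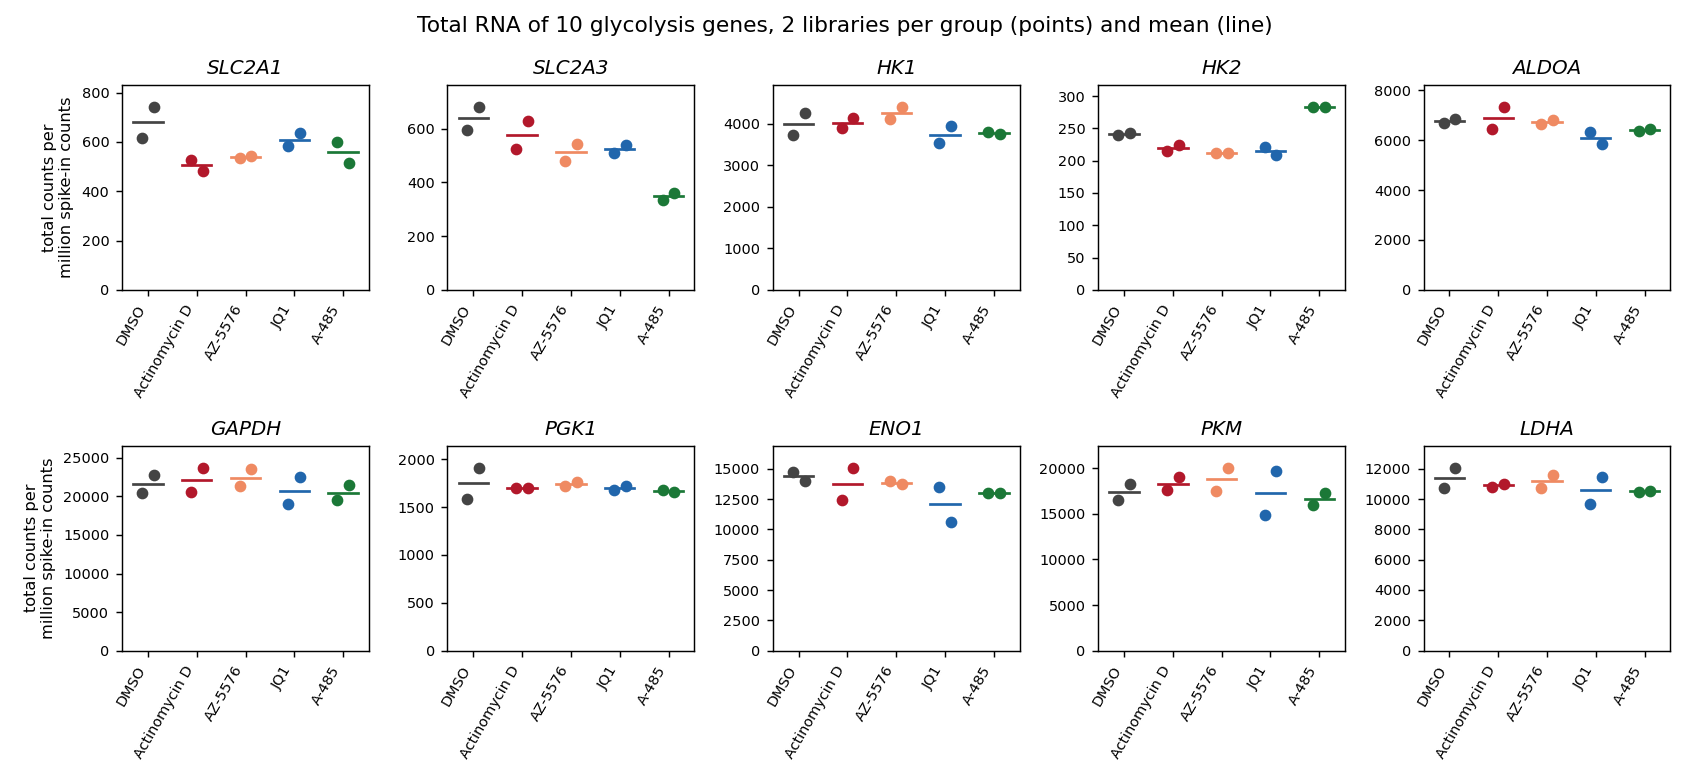
Spike-in-scaled total counts (vertical axis, from 0, its own range per gene) for each of the 10 members in the 5 groups; points are libraries and lines are means of 2. SLC2A3 with A-485 stands at 54.5% of its DMSO mean, and SLC2A1 with Actinomycin D at 74.3%.

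The other members stayed between -0.25 and 0.11 on the log2 scale in total RNA in all 4 drug comparisons, and none was called (edgeR). With AZ-5576 and with JQ1 0 of the 10 members were called in total RNA, with 2 lower and 0 higher at an unadjusted p under 0.05 in each and 0 called with DESeq2. Of all genes 12.9% were lower and 0.782% higher with AZ-5576, and 7.35% and 0.837% with JQ1. A fit with a term for the replicate number called 2 members lower with AZ-5576 and 1 with JQ1, though pairing of the replicates was not established. On the TMM scale, which moved total RNA up by a median of 0.25 with Actinomycin D, 0.15 with AZ-5576 and 0.20 with JQ1, 5 members were higher with Actinomycin D (PKM, HK1, PGK1, ALDOA and GAPDH) and HK1 with AZ-5576. ENO1 was uneven under JQ1, with 29959 and 22377 total counts, and was called lower without JQ1 replicate 1 (-0.44, adjusted p = 0.00434).

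**Figure D4:**
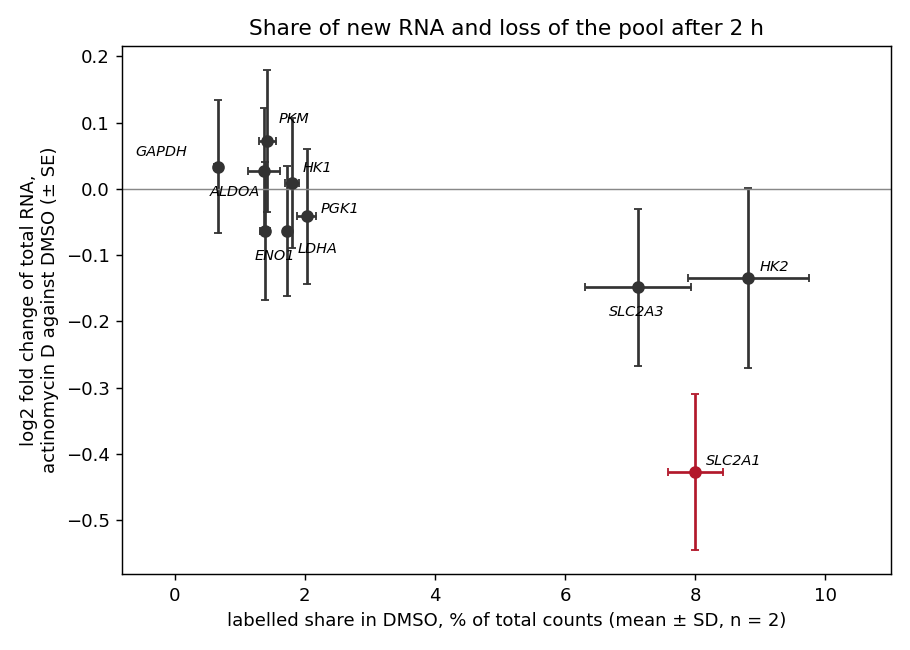
Labelled share in DMSO (horizontal axis, percent of total counts, mean and SD of 2 libraries) against the log2 fold change of total RNA with Actinomycin D on the spike-in scale (vertical axis, bars are SE) for the 10 members; red marks an adjusted p under 0.05. The 3 members with shares above 7% have the 3 lowest values, -0.43 for SLC2A1, -0.15 for SLC2A3 and -0.13 for HK2. Of these only SLC2A1 was called (edgeR, adjusted p = 0.416 for SLC2A3 and 0.543 for HK2). The bars of SLC2A3 and HK2 overlap those of LDHA and ENO1, so their order is not resolved. On the TMM scale SLC2A3 and HK2 had the other sign.

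The rest of the pathway was read from lists of related genes. Among other glycolysis genes 8 of 22 had enough labelled counts to be tested, and 2 fell with JQ1 and 0 with A-485, where 28.6% and 4.86% of all genes were lower. PGAM1, phosphoglycerate mutase, had 186 and 165 labelled counts in DMSO and 60 and 85 with JQ1, and fell by 1.49 (SE 0.28, adjusted p = 2.7e-06). LDHB, the other lactate dehydrogenase subunit, had 107 and 111 against 80 and 70, and fell by 0.76 (SE 0.29, adjusted p = 0.0367). On the spike-in scale PGAM1 and LDHB were also higher with A-485 than with JQ1, by 1.00 and 0.91. ADPGK, an ADP-dependent glucokinase, was higher by 2.12 (SE 0.54), with 70 and 26 labelled counts against 10 and 14. In that comparison 24.8% of all genes were higher, with a median of 0.72, and the 8 tested here had a median of 0.48. None of 13 tested in total RNA was called against DMSO with any drug. Of all genes 1.2% (A-485), 7.35% (JQ1), 12.9% (AZ-5576) and 19.7% (Actinomycin D) were lower there.

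Among regulators of the pathway 5 of 8 tested fell in total RNA with Actinomycin D, where 19.7% of all genes were lower, with a median of -0.59 against -0.27 over all genes. HIF1A, the oxygen-regulated factor that drives many glycolysis genes, had 153 and 218 total counts in DMSO and 98 and 117 with Actinomycin D, and fell by 0.97 (SE 0.24, adjusted p = 0.00286). PDP2, a phosphatase that activates pyruvate dehydrogenase, fell by 0.54, PFKFB3, a maker of the activator fructose 2,6-bisphosphate, by 0.46, and PDK1, a kinase that shuts pyruvate dehydrogenase, by 0.61. With AZ-5576 2 of 8 fell, HIF1A by 0.83 and PDP2 by 0.73, and with JQ1 2 of 8, PDP2 by 0.73 and PFKFB4 by 0.74, where 12.9% and 7.35% of all genes were lower. With A-485 0 of 8 were called in total RNA (1.2% of all genes lower) and 0 of 6 in labelled RNA (4.86%). The median of those 6 in labelled RNA was -0.83 with A-485, against -0.09 over all genes and -0.58 over the 10 members. It rests in part on low labelled counts, in DMSO 7 and 22 for PFKFB2 and 13 and 13 for PFKFB4, while PDP2 had 42 and 39.

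A list of further hexose and lactate transporter families, with BSG, gave no call in labelled RNA with JQ1 or A-485 (0 of 4 each). In total RNA 2 of 8 fell with Actinomycin D, where 19.7% of all genes were lower. SLC2A4 fell by 0.83, with 93 and 131 total counts in DMSO and 45 and 99 with Actinomycin D. SLC2A13 fell by 1.51, with 44 and 57 against 15 and 25. In labelled RNA with JQ1 1 of 7 genes for pyruvate entry fell (DLAT, a pyruvate dehydrogenase subunit, by 1.38), 1 of 4 of the pentose phosphate pathway (RPIA, an isomerase, by 2.42) and 1 of 7 of the glycogen and sugar nucleotide genes (UGP2, which makes UDP-glucose, by 1.93), each at or below the 28.6% of all genes. With A-485 the counts were 0 of 7, 0 of 4 and 0 of 7, where 4.86% of all genes were lower.

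The genes most like a member were sought among 760 genes with at least 100 labelled counts per DMSO library on average. Likeness was the Euclidean distance between log2(spike-in-scaled labelled counts + 1), averaged per group over DMSO, AZ-5576, JQ1 and A-485 (8 libraries), with each gene centred on its own mean. The added 1 shrinks differences between the low AZ-5576 levels. SLC2A3 lay nearest to CORO1C (0.25), SPN (0.38) and VIM (0.41), and SLC2A1 to NUDT4 (0.11), SLC20A1 (0.25) and MALAT1 (0.27). HK1, which with HK2 was lowest with JQ1 (-1.96 and -1.93, not separated), lay nearest to DHRS11 (0.28), PITX1 (0.36) and MYADM (0.39), and ALDOA, the highest there, to TUBA1C (0.17), RTN4 (0.20) and TRIM24 (0.30).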

How the data were processed

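The authors deposited 3 tables of raw read counts per gene: all human reads, human reads with T-to-C conversions, and Drosophila spike-in reads, per the file headers. Per the labels' protocols RNA was mixed with 5% Drosophila S2 RNA after purification and made into QuantSeq 3′ libraries. Per the submitters' processing notes the tools included Trim Galore 0.6.5, bedtools and bcl2fastq 2.17.1.14, and the builds were dm6 and hg38. Aligner, conversion caller and strand use: not given in the sources used here. All 10 libraries were grouped by their titles. Symbols matched 55381 of 59204 identifiers, and positions came from GENCODE release 29 (GRCh38).

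Tests used edgeR 4.0.16 in R 4.3.3 (quasi-likelihood, robust, two-sided) with all 10 libraries in 1 fit, the spike-in total as library size, a minimum of 10 counts in 2 or more libraries for a gene, and a threshold of 0.05 on p adjusted by Benjamini-Hochberg over 7996 genes (labelled) or 14572 (total), with 5 residual degrees of freedom. The spread was pooled over genes, with a common coefficient of variation of 24.8% in labelled and 10.9% in total RNA. SE is the log2 fold change over the root of its F statistic, and 95% intervals are normal. A permutation of 2 libraries against 2 gives no two-sided p below 0.333. The code was tested on simulated data. Alternatives were TMM scaling, DESeq2 1.42.0, no filter, each library left out and a replicate term. Named genes were the 10 members, up to 4 called genes per list and comparison by highest counts, and the 3 nearest patterns. Members and lists were chosen with earlier results of these data known. The values of 1 marker gene are not reported here.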

Additional observations from a re-analysis of the deposited data

How the results depend on the processing

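The 2 libraries per group limit these comparisons, and so do labelled counts under 60 in some A-485 or JQ1 libraries of SLC2A1, SLC2A3, HK1, HK2 and PGK1. The cause of the changes below was not tested. DESeq2 gave the same call and direction for all 100 values of the members, and without the filter 98 of 100 were the same (LDHA with JQ1 and SLC2A1 between A-485 and JQ1 lost their calls). Without the filter A-485 raised 3 genes in labelled and 8 in total RNA over all genes, against 13 and 5. The labels give replicates a number and no shared culture or day. Deviations of same-numbered libraries correlated at -0.03 to 0.13 between groups in labelled RNA and at -0.07 to 0.29 in total RNA, where 7 of 10 group pairs were over 0.1 and DMSO with AZ-5576 was at 0.072, so pairing was not established. The replicate block left 95 of 100 member values with the same call. In total RNA it called 2 members lower with AZ-5576 (SLC2A1 and SLC2A3), 1 lower with JQ1 (SLC2A3) and 1 higher (HK2) with A-485 against Actinomycin D, and it lost SLC2A1 between A-485 and JQ1 in labelled RNA (adjusted p = 0.0530). Over all genes it gave 1972 lower with JQ1 in total RNA (1071 without it) and 13 higher with A-485 (5 without it).

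With TMM scaling, in labelled RNA, lower and higher genes were 628 and 34 with Actinomycin D (7933 and 0 on the spike-in scale), 2206 and 471 with AZ-5576 (7574 and 16), 415 and 444 with JQ1 (2286 and 101), and 673 and 434 for A-485 against JQ1 (251 and 1984), with 26 higher for A-485 (13). In total RNA they were 1153 and 791 with Actinomycin D (2874 and 49), 1210 and 546 with AZ-5576 (1878 and 114), 288 and 214 with JQ1 (1071 and 122), and 766 and 1220 for A-485 against Actinomycin D (95 and 2348), with 13 higher for A-485 (5). Among the members 6 were lower with Actinomycin D in labelled RNA, 1 lower and 2 higher with JQ1, and 6 lower and 0 higher for A-485 against JQ1. In total RNA 0 were lower and 5 higher with Actinomycin D, 1 higher with AZ-5576, and 7 lower for A-485 against Actinomycin D. Members that changed sign in labelled RNA were, with JQ1, PKM (0.39), SLC2A1 (0.40), LDHA (0.31), ENO1 (0.026) and GAPDH (0.68), with A-485 ENO1 (0.10), and between A-485 and JQ1 HK1 (-0.50), LDHA (-0.63) and PGK1 (-0.44). In total RNA they were HK2 (0.12), SLC2A3 (0.10), LDHA (0.19), ENO1 (0.18) and PGK1 (0.22) with Actinomycin D, LDHA (0.12), ENO1 (0.094), PGK1 (0.15) and ALDOA (0.14) with AZ-5576, PKM (0.18), HK1 (0.10), HK2 (0.032), SLC2A1 (0.044), LDHA (0.090), PGK1 (0.16), ALDOA (0.043) and GAPDH (0.14) with JQ1, and SLC2A1 (-0.056) for A-485 against Actinomycin D. Scaled to the human total of each library, the members' median level in total RNA was 106% of DMSO for Actinomycin D (97.9% per spike-in), 101% for AZ-5576 (99.2%), 101% for JQ1 (92.1%) and 95.0% for A-485 (93.1%).

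Leaving out 1 library at a time gave these ranges. In labelled RNA all genes higher with AZ-5576 were 5 to 11. With JQ1 1049 to 1675 were lower and 51 to 61 higher, with A-485 191 to 217 and 1 to 4, and for A-485 against JQ1 143 to 167 and 889 to 1441. In total RNA 1205 to 2725 were lower and 27 to 47 higher with Actinomycin D, 903 to 1626 and 44 to 68 with AZ-5576, 277 to 973 and 64 to 129 with JQ1, 71 to 138 and 0 to 3 with A-485, and 49 to 84 and 1295 to 1625 for A-485 against Actinomycin D. Members lower in labelled RNA were 1 to 3 with JQ1, and 1 to 3 lower and 0 to 2 higher for A-485 against JQ1; the count of 1 came without JQ1 replicate 2 (HK1) and without A-485 replicate 2 (PKM). In total RNA 0 to 1 were lower with Actinomycin D, AZ-5576 and JQ1. Values near 0 that changed sign in labelled RNA were ALDOA with JQ1 (-0.13 to 0.22), ENO1 (-0.11 to 0.076) and HK2 (-0.39 to 0.46) with A-485, and PGK1 between A-485 and JQ1 (-0.0027 to 0.51). In total RNA they were, with Actinomycin D, ENO1 (-0.21 to 0.069), HK1 (-0.082 to 0.11), GAPDH (-0.074 to 0.13), ALDOA (-0.068 to 0.12), LDHA (-0.15 to 0.025) and PGK1 (-0.17 to 0.10), and with AZ-5576 LDHA (-0.11 to 0.058), PGK1 (-0.13 to 0.13), ALDOA (-0.026 to 0.0056) and GAPDH (-0.021 to 0.13). With JQ1 they were PKM (-0.23 to 0.17), LDHA (-0.23 to 0.0071), GAPDH (-0.19 to 0.056), HK1 (-0.19 to 0.0019) and PGK1 (-0.17 to 0.10), with A-485 PKM (-0.13 to 0.011), HK1 (-0.17 to 0.018) and PGK1 (-0.20 to 0.073), and for A-485 against Actinomycin D ENO1 (-0.22 to 0.062).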
